A study of Mus musculus with 12 samples.

Results

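The genes described here are the chemokines and chemokine receptors of bone-marrow derived macrophages: the protein-coding genes whose symbols begin with Ccl, Cxcl, Ccr or Cxcr and a digit, together with Pf4, Ppbp and Ccrl2. The rule took 44 of the 24728 genes in the deposited count table, 28 ligands and 16 receptors. Ccl27a entered it in 2 rows, of which the row on an unplaced scaffold held 3 counts over all libraries. The libraries come from a study of myelin recycling by macrophages in brain cancer. Macrophages carrying the red fluorescent protein dTomato were sorted out of ex vivo assays, at 4000 to 20000 cells per sample by the labels, and their polyadenylated RNA was sequenced in 12 libraries. There were 4 groups of 3 libraries: Control, Full Tumor, Myelin Alone and Tumor without Myelin. All 4 share the same source label, bone marrow with dissociated brain tumor, and each group has 1 library under mn number 957, 1 under 958 and 1 under 016. GEO's labels give no strain, genotype, sex, age or exposure time. They do not say what the Control macrophages received, which of the study's mouse glioma models supplied tumor, or what mn stands for. Since no label ties the libraries of a group to separate animals, the p-values reflect variation among these samples alone, and this variation may be technical.

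Chemokines are small secreted proteins that guide migrating leukocytes along gradients through receptors of the G protein-coupled family. Inflammatory ligands such as CCL2, CCL3, CCL4 and CCL5 draw monocytes and lymphocytes to damaged or infected tissue, and in brain tumors the CCL2 and CCR2 pair is known for the entry of monocytes from blood. Many of the genes lie in clusters of related neighbours, and a macrophage both releases these ligands and carries several of the receptors.

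Library totals ran from 17071673 to 21689624 counts, and 16465 to 17861 genes had at least 1 count in a library. Levels are given as CPM, counts in proportion to the library total and scaled by TMM factors of 0.965 to 1.06, and a count of 0 allows a level of up to 0.142 to 0.182 CPM (3 counts per library). Of 10 macrophage markers all 10 were present, with a summed level of 13450 to 18860 CPM. The lymphocyte list summed to at most 10.2 CPM and the list for glioma cells, astrocytes and neurons to at most 8.64 CPM. The oligodendrocyte list, 6 of 8 genes with counts, summed to 111 to 161 CPM, mostly Cnp and Mbp. The level of a gene in a bulk library cannot tell fewer cells of a type from less RNA per cell.

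Of the 44 genes, 28 passed the filter on low counts and were tested (18 ligands and 10 receptors), and 18 reached a mean of 10 CPM in at least 1 group (11 ligands and 7 receptors). The 16 untested genes held 1 to 150 counts over the 12 libraries. They were the ligands Ccl24, the scaffold copy of Ccl27a, Ccl28, Cxcl3, Cxcl5, Cxcl9, Cxcl11, Cxcl12, Cxcl17 and Ppbp and the receptors Ccr4, Ccr10, Ccr1l1, Cxcr1, Cxcr5 and Cxcr6. Another 10 were tested at low levels, with no library above 8.48 CPM: Ccl8, Ccl12, Ccl22, Ccl27a, Cxcl1, Cxcl2, Cxcl10, Ccr7, Ccr9 and Cxcr2. Per kilobase of exon, the highest mean levels over the 12 libraries were those of Ccl9 (128 CPM per kb), Cxcl16 (121), Pf4 (109), Ccl2 (87.6), Ccl4 (83.8) and Ccl3 (75.8). The highest of these genes are thus ligands, and among receptors Ccr1 stood at 26.5 CPM per kb and Cxcr4 at 17.5. The place of Ccl2 comes from number 016, where its mean was 288 CPM, beside 3.76 CPM in 957 and 7.65 CPM in 958.

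By group alone, edgeR's quasi-likelihood test with Benjamini-Hochberg adjustment over all 13414 tested genes called 0 of the 28 genes in any of the 6 comparisons. At an unadjusted p under 0.05, the same test gave 3 genes for Myelin Alone against Control, 2 for Tumor without Myelin against Control, 3 for Full Tumor against Control, 0 for Full Tumor against Tumor without Myelin, 4 for both tumor groups against both groups without tumor, and 1 for the interaction of myelin with tumor. Of all 13414 tested genes, 279, 548, 560, 161, 775 and 153 were under that value, in the same order. DESeq2 by group alone called 1 gene (Ccl6) for Myelin Alone against Control, 1 for the tumor groups against the others, and 0 in each of the other 4. The share of all tested genes that DESeq2 called is not given here. Of all tested genes, edgeR by group alone called 0.0745% (10 genes) for the tumor groups against the others and 0.0% in each other comparison. Libraries with the same mn number varied together across groups, so each comparison below is also given with the number as a block in the fit. That fit called 1, 2, 2, 0, 5 and 0 of the 28 genes, in the same order of comparisons. Comparisons against Control share the Control libraries.

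Pf4 and Cxcl16, both chemokines of the CXC class, were higher in the libraries given tumor. Pf4 encodes platelet factor 4, known from the granules of platelets and also made by macrophages, and Cxcl16 encodes a membrane-bound chemokine that is also a scavenger receptor for oxidised lipid. The receptor Ccr2 was higher as well. With the block, 5 of the 28 genes rose in both tumor groups against both groups without tumor and 0 fell, where 2.25% of all tested genes were called (1.63% higher and 0.626% lower). Pf4, Cxcl16, Ccr2 and Ccl6 were among the 5. The median difference of the 28 genes was 0.39 on the log2 scale with the block, beside -0.0017 over all tested genes. In 11 of the 28 (39.3%) the tumor libraries averaged higher within each of the 3 numbers, and in 1 (3.57%) lower, where 16.2% and 15.0% of all tested genes did so. For none of the 28 did the 6 tumor libraries lie wholly above or below the other 6, which 0.581% and 0.224% of all tested genes did.

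In Control, Pf4 (ENSMUSG00000029373, chromosome 5, 90772435 to 90773383 on mm10) was at 21.6, 57.1 and 53.8 CPM in numbers 957, 958 and 016. Myelin Alone gave 21.9, 71.2 and 83.9 CPM. Tumor without Myelin gave 59.2, 110 and 130 CPM, while Full Tumor gave 71.1, 139 and 128 CPM. Every library of both tumor groups lay above every Control library, while the Myelin Alone libraries of 958 and 016 lay above both tumor libraries of 957. Group means were 44.2 ± 19.7 CPM in Control (SD, n = 3, as for every mean here), 59.0 ± 32.7 in Myelin Alone, 99.7 ± 36.5 in Tumor without Myelin and 113 ± 36.4 in Full Tumor. Within a number, Tumor without Myelin was 2.75, 1.92 and 2.42 times Control, and Full Tumor was 3.30, 2.43 and 2.37 times Control. With the block, Pf4 rose by 1.23 ± 0.18 (log2 ± SE) in Tumor without Myelin against Control (edgeR adjusted p = 0.0128) and by 1.42 ± 0.18 in Full Tumor (edgeR adjusted p = 0.00474). Over both tumor groups and with the block it rose by 1.15 ± 0.13 (edgeR adjusted p = 0.00109), against 1.05 ± 0.36 by group alone (edgeR adjusted p = 0.490). This last call held without any single library and without any single number, with edgeR adjusted p of at most 0.0355. The call for Tumor without Myelin against Control was lost without Control 957 (edgeR adjusted p = 0.0809), Tumor without Myelin 957 (edgeR adjusted p = 0.0716) or Tumor without Myelin 016 (edgeR adjusted p = 0.0662). The megakaryocyte and platelet markers Itga2b and Gp9 were at or near 0, with at most 1.98 and 0.392 CPM in any library, and the platelet chemokine Ppbp was at 0 in 10 libraries, 0.735 CPM in Control 016 and 3.87 CPM in Full Tumor 016.

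The 250 bases before the Pf4 start are shown because Pf4 held the most stable of the calls. They are chr5:90772185-90772434 on the plus strand, from RefSeq on GRCm38.p6, written 5′ to 3′ with capitals for the match to the PU.1 core GAGGAAGT on the opposite strand. PU.1 is a transcription factor of the macrophage lineage. On either strand, 2.44% of the 32851 RefSeq promoter windows of 250 bases before a start hold these letters, and of the 30 chemokine and receptor genes matched to a window Pf4 and Cxcr3 do.
Pf4: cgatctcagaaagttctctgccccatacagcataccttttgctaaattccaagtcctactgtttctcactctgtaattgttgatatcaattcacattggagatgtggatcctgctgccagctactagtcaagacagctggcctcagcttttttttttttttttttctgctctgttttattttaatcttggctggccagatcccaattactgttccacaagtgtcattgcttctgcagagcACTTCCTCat

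**Figure D1:**
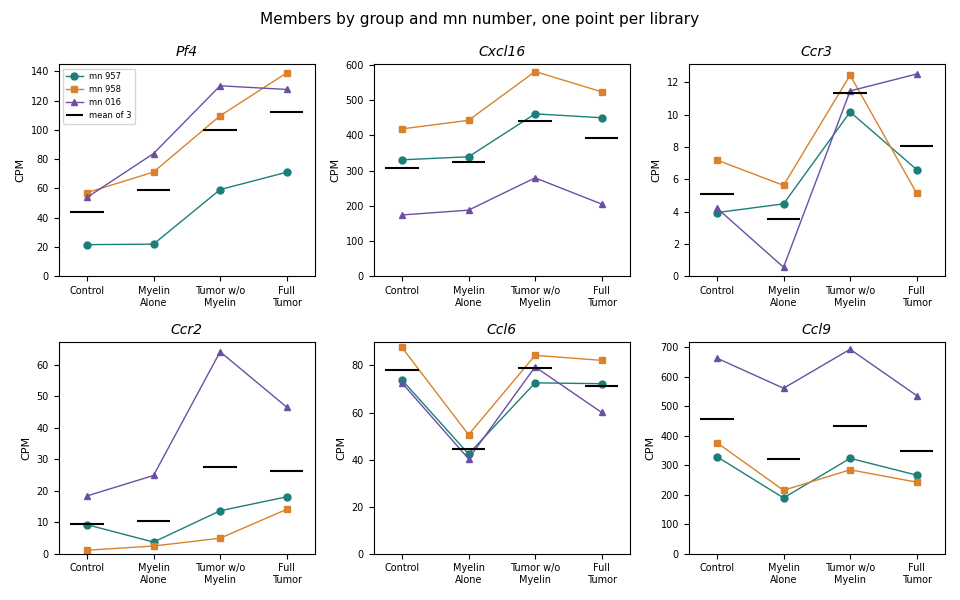
Levels in CPM on linear axes from 0 for 6 genes. Each point is a library, lines join libraries of the same mn number across the 4 groups, and black bars are means of 3. Pf4 sat above Control in every library given tumor, Ccl6 was lowest in the 3 Myelin Alone libraries (40.4 to 50.6 CPM), and number 016 ran below the others for Cxcl16 and above them for Ccl9.

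Cxcl16 (chromosome 11, 70453983 to 70459984) was measured at 331, 418 and 174 CPM in the Control libraries 957, 958 and 016, and at 339, 443 and 188 CPM in Myelin Alone. Tumor without Myelin held 461, 582 and 279 CPM and Full Tumor 450, 524 and 205 CPM. All 4 groups overlapped, because the 016 library was the lowest of each, but within every number both tumor libraries lay above both others. Tumor without Myelin was 1.40, 1.39 and 1.61 times the Control of the same number and Full Tumor 1.36, 1.25 and 1.18 times. With the block, Cxcl16 rose by 0.55 ± 0.09 (log2 ± SE) in Tumor without Myelin against Control (edgeR adjusted p = 0.0211). Over both tumor groups it rose by 0.41 ± 0.06 (edgeR adjusted p = 0.00767, and 1.00 by group alone). The second call held without any single library, up to an edgeR adjusted p of 0.0341. The first was lost without any one of the 3 Control or 3 Tumor without Myelin libraries, where its edgeR adjusted p was between 0.0626 and 0.132. The gene overlaps Zmynd15 on the other strand, which held 1231 counts beside its 81055. Its receptor Cxcr6 was not tested.

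Ccr2 (chromosome 9, 124101950 to 124113557), the receptor for CCL2 and CCL7 on monocytes, was low in these macrophages and varied by number. Control held 9.21, 1.10 and 18.3 CPM in numbers 957, 958 and 016, and Myelin Alone 3.69, 2.43 and 24.8 CPM. Tumor without Myelin held 13.6, 4.91 and 64.1 CPM and Full Tumor 18.1, 14.1 and 46.5 CPM. All groups overlapped, but within each number both tumor libraries were above both others. With the block Ccr2 rose by 1.63 ± 0.32 (log2 ± SE) over both tumor groups (edgeR adjusted p = 0.0228), against 1.44 ± 0.79 by group alone (edgeR adjusted p = 1.00). Its call was lost in each of the 3 leave-outs of a number (edgeR adjusted p = 0.0711 to 0.107) and also without Control 016 (edgeR adjusted p = 0.0516), Myelin Alone 957 (0.0545), Myelin Alone 958 (0.0760), Tumor without Myelin 957 (0.0587) or Tumor without Myelin 016 (0.0797).

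Marker sums of other cell types were compared across the same groups. The 6 monocyte markers other than Ccr2 summed to 5.38 to 120 CPM in Control, 10.5 to 109 in Myelin Alone, 13.4 to 63.9 in Tumor without Myelin and 43.1 to 51.2 in Full Tumor. Chil3 alone gave 3.46 to 86.7 CPM of these sums. Within a number, the Full Tumor sum was the highest in 957 and 958 (51.2 and 43.1 CPM) and the lowest in 016 (49.2 CPM). Of 11 microglia markers, 10 had counts, and their sum was 384 to 512 CPM in Control, 586 to 603 in Myelin Alone, 706 to 925 in Tumor without Myelin and 669 to 842 in Full Tumor. Olfml3 gave 89.2 to 355 CPM of that sum, whereas the defining markers P2ry12 and Tmem119 reached at most 3.58 and 28.4 CPM, the latter in Tumor without Myelin 016. Their part in the differences of Pf4, Cxcl16 and Ccr2 was not tested.

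Ccl6 (chromosome 11, 83587882 to 83593087), a ligand of CCR1 made by myeloid cells, was lower in Myelin Alone than in any other group. It stood at 42.4, 50.6 and 40.4 CPM in the Myelin Alone libraries of 957, 958 and 016. Control held 73.9, 87.7 and 72.6 CPM, Tumor without Myelin 72.6, 84.3 and 79.4 CPM, and Full Tumor 72.3, 82.2 and 60.0 CPM. No Myelin Alone library reached the lowest library of the other 3 groups, and Myelin Alone was 0.574, 0.577 and 0.556 times the Control of the same number. With the block, Ccl6 fell by 0.81 ± 0.11 on the log2 scale in Myelin Alone against Control (edgeR adjusted p = 0.0354), as the only call among the 28 genes. Of all tested genes, 0.0373% were called there, 0.00745% higher and 0.0298% lower. By group alone the difference was -0.81 ± 0.17 (edgeR adjusted p = 0.979). The blocked call was lost without any one of the 12 libraries other than Full Tumor 016, with an edgeR adjusted p of up to 0.212, while the log2 difference stayed between -0.84 and -0.80. The Ccl6 call for the tumor groups, a rise of 0.35 ± 0.08 (edgeR adjusted p = 0.0444, with the block), averages Myelin Alone with Control. Tumor without Myelin and Full Tumor each lay near Control, at 0.02 ± 0.11 and -0.13 ± 0.11 (log2 ± SE, with the block), and that call was lost in 11 of the 12 leave-outs of a library (edgeR adjusted p up to 0.162), all but the one without Full Tumor 016.

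Ccl9, the neighbour of Ccl6 and another CCR1 ligand, was measured at 329, 377 and 663 CPM in Control and 189, 215 and 561 CPM in Myelin Alone for numbers 957, 958 and 016. Tumor without Myelin held 324, 285 and 693 CPM and Full Tumor 266, 243 and 536 CPM. Within each number Myelin Alone was below Control, at 0.575, 0.571 and 0.846 times, but the groups overlapped through number 016. The blocked difference of -0.61 ± 0.12 (log2 ± SE) did not pass (edgeR adjusted p = 0.216). Across the 28 genes, 7 (25.0%) were lower and 5 (17.9%) higher in Myelin Alone than in Control within all 3 numbers, where 12.3% and 14.0% of all tested genes were. The groups did not overlap for 1 gene in each direction, Ccl6 lower and Ccr9 higher, where 2.57% and 3.21% of all tested genes separated that way. Ccr9 stayed under 10 CPM and overlaps Lztfl1 on the other strand.

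Ccl6 and Ccl9 lie next to each other on the minus strand of chromosome 11 (83572919 to 83593087 over both), within a cluster that also holds Ccl5, Ccl3 and Ccl4. Both were below Control within each number in Myelin Alone and also in Full Tumor. In Full Tumor, Ccl6 was 0.978, 0.937 and 0.827 times Control and Ccl9 0.810, 0.644 and 0.809 times, in numbers 957, 958 and 016. Their upstream windows are shown because of the lower levels in Myelin Alone. They are chr11:83593088-83593337 for Ccl6 and chr11:83578637-83578886 for Ccl9, both minus strand, from RefSeq on GRCm38.p6, with capitals for a run of 13 bases that both hold, GCCCTCCACTTCC. Searched on both strands, the run is present in 5 of the 32851 promoter windows (0.0152%), and it was picked because the windows share it. It begins 55 bases before the Ccl6 start and 14 bases before the Ccl9 start.
Ccl6: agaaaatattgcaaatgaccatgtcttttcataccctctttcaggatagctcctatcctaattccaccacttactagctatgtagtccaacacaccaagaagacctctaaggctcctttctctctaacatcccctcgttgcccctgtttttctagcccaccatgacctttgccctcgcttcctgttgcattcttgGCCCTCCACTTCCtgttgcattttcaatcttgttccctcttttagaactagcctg
Ccl9: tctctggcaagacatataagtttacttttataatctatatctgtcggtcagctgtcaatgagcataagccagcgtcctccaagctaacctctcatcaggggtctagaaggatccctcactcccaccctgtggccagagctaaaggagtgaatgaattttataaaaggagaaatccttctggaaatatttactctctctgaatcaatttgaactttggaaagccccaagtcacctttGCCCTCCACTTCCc

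None of the genes passed between Full Tumor and Tumor without Myelin. The groups did not overlap for 1 gene lower and 0 higher, where 2.45% and 2.58% of all tested genes separated. In 8 of the 28 genes (28.6%) Full Tumor was lower within all 3 numbers, where 14.5% of all tested genes were, and in 3 (10.7%) it was higher, where 14.2% were. The 3 were Ccl2, Ccl4 and Ccl7. With the block edgeR called 0 of the 28 genes and 0.0% of all tested genes for this comparison, and DESeq2 with the block called 0. At an unadjusted p under 0.05, edgeR with the block gave 5 of the 28 and 520 of all 13414 tested genes. The interaction, which asks whether myelin acted alike with and without tumor, gave 0 calls with edgeR and the block, and 0 calls with DESeq2 and the block. Of all tested genes, edgeR with the block called 0.0%. At an unadjusted p under 0.05, it gave 3 of the 28 and 393 of all 13414 tested genes.

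**Figure D2:**
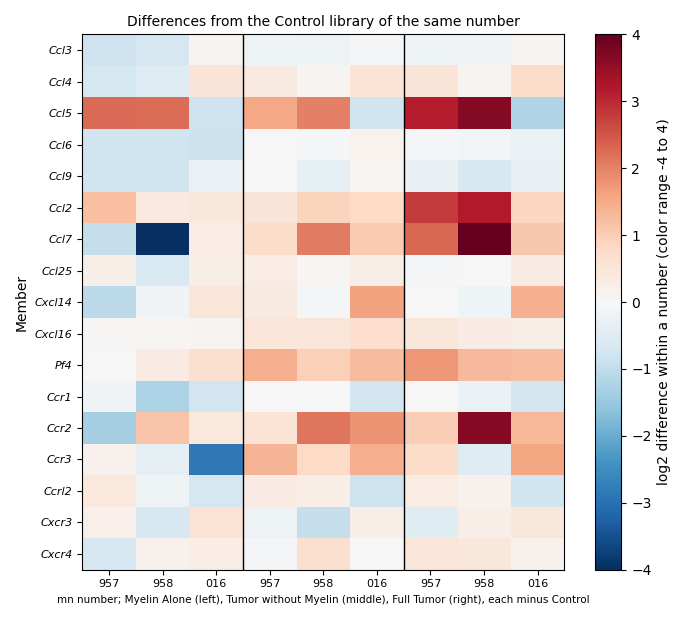
Log2 differences from the Control library of the same mn number, with 0.5 counts added, for 17 genes with a mean of at least 10 CPM in a group. Rows are genes, columns are libraries of Myelin Alone (left), Tumor without Myelin (middle) and Full Tumor (right), and colors saturate at -4 and 4. Pf4, Cxcl16 and Ccl2 were positive in all 3 numbers of each column block, Ccl6 was negative in all 3 of Myelin Alone, and Ccl5 was of opposite sign in number 016.

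The monocyte-recruiting ligands Ccl2 and Ccl7 varied more between mn numbers than between groups. Ccl2 (chromosome 11, 82035571 to 82037453) was at 1.28, 2.31 and 194 CPM in the Control libraries of 957, 958 and 016, and at 2.95, 3.03 and 267 CPM in Myelin Alone. Tumor without Myelin held 1.85, 4.28 and 339 CPM and Full Tumor 8.97, 21.0 and 352 CPM. Each 016 library lay above every 957 and 958 library, and within each number Full Tumor was the highest. Full Tumor was 7.03, 9.11 and 1.82 times the Control of the same number. With the block Ccl2 rose by 2.21 ± 0.43 (log2 ± SE) in Full Tumor against Control (edgeR adjusted p = 0.0404), against 0.95 ± 2.24 by group alone (edgeR adjusted p = 1.00). That comparison called Ccl2 and Pf4 among the 28 genes, both higher, and 0.813% of all tested genes, 0.634% being higher. The Ccl2 call held in 2 of 12 leave-outs of a library, those without Tumor without Myelin 016 and Full Tumor 016, and was lost in the other 10, with an edgeR adjusted p of up to 0.226. Without the 4 libraries of number 016 the blocked difference was 3.01 (edgeR adjusted p = 0.00956). Without number 957 or 958 it was 1.99 or 1.64, and the call was lost (edgeR adjusted p = 0.413 and 0.427).

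Ccl7, which lies beside Ccl2 and acts on the same receptor, had 0.639, 0.439 and 60.5 CPM in Control and 0.316, 0 and 74.6 CPM in Myelin Alone. In Tumor without Myelin it had 1.08, 1.94 and 126 CPM, and with Full Tumor 3.27, 12.4 and 129 CPM, again in the order 957, 958 and 016. Each tumor library exceeded the Control of its number. The blocked difference of Full Tumor against Control was 2.76 ± 0.74 (log2 ± SE) and did not pass (edgeR adjusted p = 0.158). In Tumor without Myelin against Control the blocked fit called Pf4 and Cxcl16, 2 of the 28 genes and both higher, where 0.745% of all tested genes were called and 0.559% were higher.

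An F test of the number terms in the same edgeR fit, added after the data were seen, called 13 of the 28 genes as different between numbers, where 34.9% of all tested genes were called. Every 016 library lay above all 8 others in 7 of the 28 (25.0%): Ccl2, Ccl3, Ccl7, Ccl9, Ccl12, Ccr1 and Ccr2, where 8.12% of all tested genes did. Every 016 library lay below the others in 3 (10.7%): Cxcl16, Cxcr4 and Ccl27a, where 5.86% did. The mean of Ccl2 over the 016 libraries was 288 CPM, 76.5 times that of 957 and 37.6 times that of 958 (edgeR adjusted p = 3.7e-06). The 6 monocyte markers other than Ccr2 summed to 49.2 to 120 CPM in number 016, 5.38 to 51.2 in 957 and 10.5 to 43.1 in 958. The neutrophil precursor gene Mpo stood at 111 CPM in Control 016 and at 3.87 to 27.2 CPM in the other 016 libraries. In 957 and 958 no library held more than 1.10 CPM. Another gene of the 10 on the neutrophil list followed Mpo in this, but not all of them did. Csf3r was lower in 016 (18.3 to 28.9 CPM) than in 957 and 958 (36.2 to 68.3 CPM). The whole list summed to 43.7 to 286 CPM in 016, 64.9 to 125 in 957 and 68.9 to 171 in 958. The part of monocytes or neutrophil precursors in the number's differences was not tested.

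**Figure D3:**
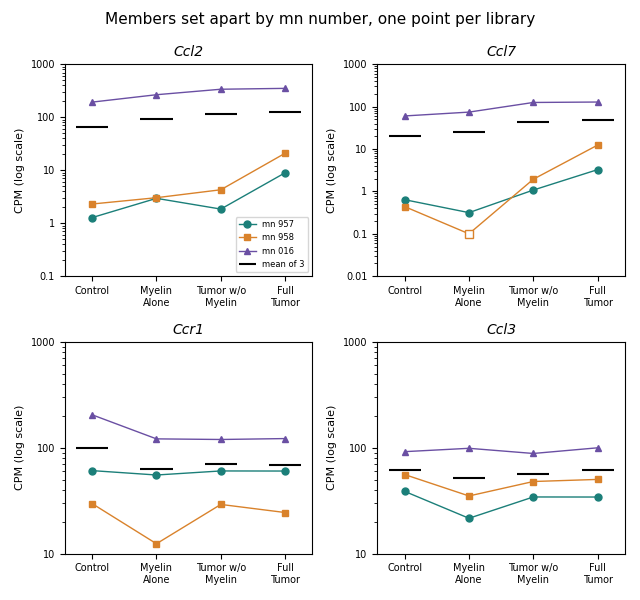
Levels in CPM on log axes for 4 genes that lay higher in every library of number 016. Points are libraries, lines join libraries of the same number, black bars are means of 3, and the open square marks a level of 0 drawn at 0.1. Ccl2 stood at 194 to 352 CPM in number 016 and at 1.28 to 21.0 CPM in the other 8 libraries.

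Ccl5, which draws T cells and monocytes, ran in opposite directions in different numbers. In number 957 it had 3.30 CPM in Control, 15.9 in Myelin Alone, 9.76 in Tumor without Myelin and 29.1 in Full Tumor. In number 958 the levels were 4.72, 22.5, 19.4 and 60.1 CPM in the same order of groups. In number 016 they were 6.52, 3.66, 3.76 and 2.83 CPM. Control was thus the lowest library in 957 and 958 and the highest in 016. Full Tumor was 8.81 and 12.7 times Control in 957 and 958, and 0.435 times in 016. Over all numbers the blocked difference of Full Tumor against Control was 1.81 ± 0.74 (log2 ± SE) and did not pass (edgeR adjusted p = 0.431). Without number 016, a leave-out listed among the alternatives, it was 3.42 with the block (edgeR adjusted p = 0.00024) and 3.48 by group alone (edgeR adjusted p = 0.0211). In the same blocked fit of 8 libraries Ccl5 was higher by 2.26 in Myelin Alone (edgeR adjusted p = 0.0294) and by 1.81 in Tumor without Myelin (edgeR adjusted p = 0.00838). Number 016 was the only one to run the other way, so leaving it out had to raise these differences. The p-values of that fit are therefore no support for a change in Ccl5. Of the 3 leave-outs of a number, only this 1 was called for Full Tumor against Control. With the block the 3 differences ran from 0.81 to 3.42 (edgeR adjusted p up to 0.950). Whether the response of number 016 differs from the others was not tested.

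A list of interferon-induced genes was also split by number. Of its 30 genes, 29 were tested, and their summed level was 694 to 1080 CPM in the 6 libraries without tumor. It was 3155 and 3587 CPM in the Tumor without Myelin libraries of 957 and 958 and 2835 and 2961 CPM in their Full Tumor libraries, but 896 and 730 CPM in the tumor libraries of 016. With the block, 8 of the 29 rose in the tumor groups and 0 fell, with a median log2 difference of 1.51, and by group alone edgeR called 0. Among them, Stat2, a transcription factor of the interferon response, rose by 1.20 ± 0.19 (edgeR adjusted p = 0.00629), Zbp1, a nucleic acid sensor, by 2.05 ± 0.36 (edgeR adjusted p = 0.0126), and Ifit2, an antiviral effector, by 3.04 ± 0.55 (edgeR adjusted p = 0.0147). In Myelin Alone, where Ccl5 was above Control in 957 and 958, the list summed to 726 and 772 CPM in these numbers, beside 810 and 759 CPM in Control.

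**Figure D4:**
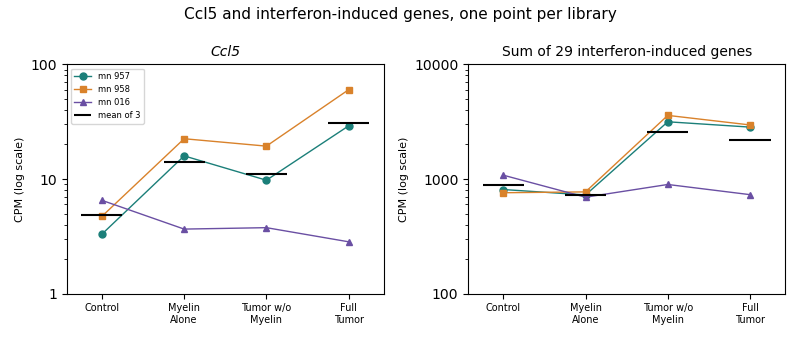
Levels in CPM on log axes of Ccl5 and of the sum of 29 interferon-induced genes. Points are libraries, lines join libraries of the same mn number, and black bars are means of 3. In both, number 016 did not show the higher tumor levels seen in 957 and 958, and Ccl5 was also higher in their Myelin Alone libraries (15.9 and 22.5 CPM).

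Cxcl10, a CXCR3 ligand and a classical interferon target, stayed low. Control held 0.852, 0.659 and 4.02 CPM and Myelin Alone 0, 0 and 2.27 CPM for numbers 957, 958 and 016. Tumor without Myelin held 1.28, 2.63 and 6.86 CPM and Full Tumor 1.06, 0.057 and 1.37 CPM. All groups overlapped, and the blocked difference over both tumor groups was 1.27 ± 0.79 (edgeR adjusted p = 0.570). The related Cxcl9 and Cxcl11 were not tested. The Cxcl10 window is shown because Cxcl10 stayed low where the interferon list was high. It is chr5:92348890-92349139 on the minus strand, RefSeq on GRCm38.p6, with capitals for an interferon response element, GAAA and GAAA with 2 bases of any kind between them (in 2.98% of all promoter windows, and in those of Cxcl10 and Cxcl14 among the 30 matched genes) and for overlapping matches to the NF-kB consensus (5.0% of windows, and 7 of the 30), both searched on either strand.
Cxcl10: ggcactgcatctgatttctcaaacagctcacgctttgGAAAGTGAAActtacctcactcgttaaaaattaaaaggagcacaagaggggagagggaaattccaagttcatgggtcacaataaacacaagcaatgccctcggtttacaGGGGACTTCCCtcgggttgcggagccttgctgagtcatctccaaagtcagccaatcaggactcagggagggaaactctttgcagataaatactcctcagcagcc

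The neutrophil-recruiting CXCR2 ligands Cxcl1 and Cxcl2 were tested but remained under 10 CPM in every group, and Cxcl3 and Cxcl5 were not tested. Their receptor Cxcr2 was lower in every Tumor without Myelin library than in every Control library, at low level. The neutrophil marker list, all 10 genes with counts, summed to 76.4 to 286 CPM in Control and 64.9 to 171 CPM in Tumor without Myelin, and its part in the levels of Cxcr2 was not tested. Cxcl1, Cxcl2 and Cxcl3 lie near Pf4 on chromosome 5. Segments of 50 bases upstream of the 3 are shown to set them beside Pf4, with capitals for their identical match to the NF-kB consensus, GGGAATTTCC, from RefSeq on GRCm38.p6, plus strand, at chr5:90891155-90891204, chr5:90903779-90903828 and chr5:90786011-90786060.
Cxcl1: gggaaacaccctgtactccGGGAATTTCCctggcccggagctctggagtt
Cxcl2: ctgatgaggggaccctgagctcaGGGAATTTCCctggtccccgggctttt
Cxcl3: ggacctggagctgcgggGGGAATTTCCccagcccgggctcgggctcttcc

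Ccl3 and Ccl4, the macrophage inflammatory proteins, passed no test between groups with edgeR, by group alone or with the block. Ccl3 had 38.8, 55.9 and 91.9 CPM in Control, 21.6, 35.1 and 98.8 in Myelin Alone, 34.3, 48.0 and 88.3 in Tumor without Myelin, while Full Tumor gave 34.3, 50.2 and 99.9, in the order 957, 958 and 016. Ccl4 had 31.4, 63.8 and 50.7 CPM in Control, 19.4, 44.6 and 71.9 in Myelin Alone, 40.5, 68.1 and 74.9 in Tumor without Myelin, while Full Tumor gave 44.9, 68.6 and 85.1. Both were lower in Myelin Alone than in Control in 957 and 958 and higher in 016, and all groups overlapped. Ccl4 was highest in Full Tumor within every number.

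Cxcl14, a ligand with no settled receptor, was measured at 15.0, 31.7 and 7.30 CPM in Control and 7.22, 28.7 and 10.2 CPM in Myelin Alone. The levels with tumor were 19.4, 30.3 and 22.5 CPM without myelin and 14.8, 28.0 and 19.4 CPM in Full Tumor, so all groups overlapped. Ccl25, the ligand of CCR9, stood at 9.76 to 18.2 CPM in Control, 11.5 to 13.5 in Myelin Alone, 11.5 to 19.1 in Tumor without Myelin and 10.9 to 18.0 in Full Tumor. Its 3014 counts are uncertain, since it overlaps Elavl1 on the other strand (29769 counts) and the strand setting of the counting is not given in the sources used here.

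Ccr1, a receptor for CCL3, CCL6 and CCL9 among others, had 60.8, 29.7 and 205 CPM in Control and 55.3, 12.4 and 121 CPM in Myelin Alone. The tumor groups were at 60.4, 29.2 and 120 CPM without myelin and, for Full Tumor, at 60.3, 24.5 and 122 CPM, in the order 957, 958 and 016. Control was the highest library of each number, all groups overlapped, and no comparison passed with edgeR, by group alone or with the block. Ccr3, the eotaxin receptor, stood at 3.94, 7.19 and 4.22 CPM in Control, 4.48, 5.63 and 0.554 in Myelin Alone, 10.2, 12.5 and 11.5 in Tumor without Myelin, while Full Tumor gave 6.60, 5.13 and 12.5. Tumor without Myelin lay above every Control and Myelin Alone library, and the blocked difference over both tumor groups was 1.25 ± 0.44 on the log2 scale (edgeR adjusted p = 0.227). The list for mast cells, eosinophils and basophils, 5 of 8 genes with counts, summed to 56.7 to 66.6 CPM in Control, 32.2 to 37.9 in Myelin Alone, 17.3 to 58.7 in Tumor without Myelin and 17.8 to 31.5 in Full Tumor. The eosinophil gene Epx reached at most 0.257 CPM. Prg2, also on the list, reached 16.9 CPM in Myelin Alone 958 and at most 1.94 CPM in any other library. Most of each sum came from another gene of the list. The part of these cells in the levels of Ccr3 was not tested. The groups of Tumor without Myelin and Control did not overlap for 4 genes higher (14.3% of the 28, Ccr3, Ccr9 and Pf4 among them) and 1 lower (Cxcr2, 3.57%), where 4.25% and 3.44% of all tested genes separated. Within all 3 numbers, 12 of the 28 (42.9%) were higher and 4 (14.3%) lower in Tumor without Myelin than in Control, where 16.7% and 15.4% of all tested genes were. For Full Tumor and Control, 1 gene (Pf4) separated higher and 0 lower, where 4.59% and 3.51% of all tested genes did. Within all 3 numbers, 9 (32.1%) were higher and 4 (14.3%) lower in Full Tumor, where 16.5% and 15.3% of all tested genes were.

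The remaining receptors were Cxcr4, Cxcr3 and Ccrl2. Cxcr4, the CXCL12 receptor, stood at 40.8, 28.6 and 16.0 CPM in Control, 25.7, 32.6 and 19.5 in Myelin Alone, 39.7, 45.0 and 16.3 in Tumor without Myelin, while Full Tumor gave 57.6, 39.5 and 18.2. Cxcr3 stood at 18.2, 20.5 and 17.4 CPM in Control, 20.8, 13.2 and 26.0 in Myelin Alone, 15.7, 10.7 and 20.6 in Tumor without Myelin, while Full Tumor gave 13, 24.5 and 23.6. Ccrl2, an atypical receptor that presents chemerin, stood at 41.0, 39.6 and 61.3 CPM in Control, 55.1, 34.3 and 38.3 in Myelin Alone, 51.0, 47.3 and 34.2 in Tumor without Myelin, while Full Tumor gave 50.3, 44.4 and 34.9. All 4 groups overlapped for each of the 3, and none passed a test between groups with edgeR.

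Other genes of the system are set beside the 2.25% of all tested genes called for the tumor groups with the block. Of 34 genes for signalling from chemokine receptors, all tested, the blocked fit called 1 in the tumor groups, the Src-family kinase Lyn, which rose by 0.47 ± 0.08 (log2 ± SE, edgeR adjusted p = 0.0113). The most abundant of the list were Cdc42, a small GTPase of the cytoskeleton, at 877 to 1431 CPM and Rgs1, a brake on receptor signalling, at 296 to 796 CPM. Of 11 tested genes for chemokine processing and binding, the blocked fit for the tumor groups called Sdc3, a heparan sulfate proteoglycan, higher by 0.77 ± 0.17 (edgeR adjusted p = 0.0367). In 957 and 958 Sdc3 stood at 62.7 to 96.8 CPM without tumor and 115 to 207 CPM with tumor. In 016 the tumor libraries (65.7 and 54.9 CPM) were above Control (40.6 CPM) but not above Myelin Alone (65.8 CPM). The same fit called Mmp12, the macrophage elastase that cleaves chemokines, lower: Mmp12 fell by 0.53 ± 0.07 on the log2 scale (edgeR adjusted p = 0.00218). Mmp12 stood at 3109 to 7074 CPM in Control and 1732 to 4661 CPM in Full Tumor. With the block it also fell in Tumor without Myelin (edgeR adjusted p = 0.0128) and in Full Tumor (edgeR adjusted p = 0.00474) against Control.

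Of 10 tested chemokine-like ligands and receptors outside the rule, Gpr35, a receptor once proposed for CXCL17, was called higher in the tumor groups with the block (3.25 ± 0.64, edgeR adjusted p = 0.0245). That call averages Control, where Gpr35 had counts in 957 alone (0.053 CPM), with Myelin Alone, where it had 1.63, 0.386 and 2.77 CPM. Both tumor groups together lay at 1.37 to 2.61 CPM, within the range of Myelin Alone. It was also called higher in each tumor group against Control (edgeR adjusted p = 0.0211 and 0.0224, with the block). The most abundant genes of that list were Cd74, a receptor for MIF, at 360 to 959 CPM and Mif at 195 to 378 CPM. Of 18 tested genes for NF-kB feedback and cytokines, edgeR with the block called 0 in the tumor groups, and their median log2 difference was 0.18.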

How the data were processed

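Messenger RNA of sorted macrophages was measured in 12 libraries. The values used are the authors' raw counts for each gene, deposited as whole numbers that were not normalized, beside each gene's identifier, symbol, biotype and position. The build is mm10, per the submitters' processing notes. Which aligner and counter made them, and whether strand was used, is not given in the sources used here. Reads from genes that overlap, run antisense or are near copies may thus be mixed.

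Groups and mn numbers come from the sample titles. Counts were filtered by edgeR's filterByExpr (13414 genes, holding 99.9% of counts), scaled by TMM and tested by edgeR 4.0.16's quasi-likelihood test in R 4.3.3, all 12 libraries in 1 fit by group, with Benjamini-Hochberg adjustment over all tested genes and a threshold of 0.05. The fit was tested on simulated counts first. Libraries of the same group differed by more than sampling noise in all 12 pairs (chi-square per degree of freedom 23.9 to 142), so none was counted as a duplicate. The labels do not say that a number marks a shared batch. The pairing comes from the data: with edgeR's log CPM at a prior count of 2, the deviations of same-numbered libraries from their group means correlated at 0.12 to 0.631 in 18 of 18 pairs, all above 0.1. With 0.5 counts added instead, 17 of 18 did so and the lowest was 0.0898. Fits with the number as a block are therefore given beside those by group alone. The biological coefficient of variation was 0.414 by group alone and 0.266 with the block.

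Alternatives were the block, DESeq2 1.42.0, library totals in place of TMM, no filter, and leaving out each library or number. The genes and lists were chosen with earlier results of these data known. Values in every library are given for genes with a mean of at least 10 CPM in a group, and full statistics for those called with or without the block. A gene that met this rule and a marker are counted but not reported here by name. From the other gene lists, the named genes are up to 4 that were called per comparison and the 2 most abundant. Ccl5, Ccl7, Ccl9, Ccr3 and Cxcl10 were given statistics after their values were seen. Promoter windows are RefSeq's on GRCm38.p6, matched by symbol for 30 genes. Floors and standard errors cover these libraries, and PCR reads without molecular identifiers are not independent molecules.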

Additional observations from a re-analysis of the deposited data

Results flagged for a closer look

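The level of Cxcl16 was compared between libraries with and without myelin, in the absence and in the presence of tumor. Without tumor, Myelin Alone was 1.03, 1.06 and 1.08 times Control in numbers 957, 958 and 016, higher in 3 of 3, as were 14.0% of all tested genes. With tumor, Full Tumor was 0.976, 0.901 and 0.733 times Tumor without Myelin, lower in 3 of 3, as were 14.5% of all tested genes. With the block, the log2 differences were 0.08 ± 0.09 and -0.21 ± 0.09, and neither passed (edgeR adjusted p = 0.990 and 1.00). The test of the difference itself, the interaction with the block, gave a log2 value of -0.29 ± 0.13, which did not pass (edgeR adjusted p = 1.00). By group alone the value was -0.24.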

How the results depend on the processing

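The count of the 28 genes called by edgeR was 0 by group alone in all 6 comparisons, and other settings gave more. The replicate block, which pairs libraries of the same mn number, gave 1 for Myelin Alone against Control, 2 for Tumor without Myelin against Control, 2 for Full Tumor against Control and 5 for the tumor groups against the others. DESeq2 gave 1 in the first and 1 in the last by group alone, and 2, 4, 6 and 10 with the block. Library totals with the block gave 1, 2, 2 and 4. Testing without the filter on low counts gave 1 in the last by group alone, and 2, 3, 4 and 6 with the block. Full Tumor against Tumor without Myelin and the interaction stayed at 0 in all of these. The share of all tested genes called under DESeq2, library totals, no filter and the leave-outs below is not given here. Counts of the 28 under those settings are therefore no result about these genes in particular.

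Leaving out a library gave 0 calls by group alone in every comparison. With the block it gave 0 to 1, 0 to 2, 1 to 3 and 3 to 7 calls in those 4 comparisons, and 0 to 1 for Full Tumor against Tumor without Myelin, where Ccl2 was called without Full Tumor 016. Leaving out a whole number gave 0 to 1 for Full Tumor against Control by group alone (Ccl5, without 016), and with the block 0 to 1, 0 to 2, 0 to 3 and 1 to 4. Fewer libraries are tested in these fits, and where a single library of a number or group is left it is assumed to vary like the others. Without 957 or 958 the blocked call of Cxcl16 for the tumor groups was lost (edgeR adjusted p up to 0.163), as were that of Pf4 in Full Tumor against Control (0.0625 and 0.145), that of Pf4 in Tumor without Myelin against Control (0.0935 and 0.157) and that of Ccl2 in Full Tumor against Control (0.413 and 0.427). The blocked calls of Ccr2, of Cxcl16 in Tumor without Myelin against Control and both of Ccl6 were lost in each of the 3 leave-outs of a number. The count of genes that differ between numbers was 13, 14 with library totals, 18 without the filter, 11 to 14 without a library, and 13, 10 and 7 without 957, 958 and 016. Of 481 single-gene values under alternatives, 478 kept their direction. The 3 that reversed were Ccl2 in Full Tumor against Control without Full Tumor 016 by group alone (-2.14, in a range of -2.14 to 6.13 over the 12 leave-outs), and Ccl5 in Tumor without Myelin against Control with the block, without Control 958 (-0.10) and without number 958 (-0.068). The cause was not tested. The 16 genes left out by the filter have at most 150 counts over the 12 libraries and had no test.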
